A study of Mus musculus with 10 samples.

Results

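Glutathione transferases, UDP-glucuronosyltransferases and sulfotransferases attach a polar group to hormones, lipid products and foreign compounds, and 46 of their genes were followed here in the kidney of old mice. The genes were chosen by name alone, as all those on the array whose symbol marks a cytosolic, mitochondrial or microsomal glutathione transferase, a glycosyltransferase of the Ugt1, Ugt2 or Ugt3 families, or a cytosolic sulfotransferase. They made up 46 of 18193 named genes and were read by 59 probe sets, each a set of short probes that together give 1 signal. The kidneys came from male C57BL/6 mice at 30 months of age. Of these, 5 mice had eaten a control diet and 5 had been under long-term calorie restriction, with 1 mouse on each array. All mice shared strain, sex and age, and no gene was altered per the labels. How severe the restriction was and how long it ran, and the hour and feeding state when tissue was taken, were not given in the sources used here. The comparison asks which of these enzymes differ in an old kidney after lasting calorie restriction.

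Conjugation is a late step of detoxification. Glutathione transferases join the tripeptide glutathione to reactive electrophiles, including aldehydes left by lipid peroxidation, and the product is trimmed and acetylated in the proximal tubule to a mercapturate that leaves in urine. UDP-glucuronosyltransferases of the endoplasmic reticulum transfer glucuronic acid from UDP-glucuronate to steroids, bile acids, bilirubin and drugs. Cytosolic sulfotransferases use the donor PAPS to sulfate phenols, catecholamines and steroids. The kidney proximal tubule holds many of these enzymes beside the transporters that export their products.

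Signals are MAS5 intensities on a linear scale. A difference is the log2 signal in calorie restriction minus that in control, given with limma's standard error and n = 5 per group. A gene is represented by its brightest probe set, and a call is an adjusted p under 0.05 with Benjamini-Hochberg adjustment over all 22517 probe sets tested. A probe set was tested if its mean log2 signal was at or above the median of the array, 6.81. By this filter 31 of the 46 members were tested and 15 were too dim.

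The arrays of the diets differed in ways that bear on these values. Control probe sets at both ends of Gapdh and Actb give a 3' to 5' ratio that rises with shorter RNA or less complete labelling. Its mean log2 was 1.05 ± 0.26 in control and 1.67 ± 0.46 in calorie restriction (SD, n = 5, 2-sided exact permutation p = 0.0476). Calorie-restricted replicates 1, 2 and 3 had ratios of 2.21, 2.01 and 1.75, while replicates 4 and 5, at 1.24 and 1.16, lay within the control range of 0.76 to 1.39. Bright genes also ran higher in calorie restriction: of 464 genes with a mean log2 signal of at least 13, 388 (83.6%) were above 0 and 137 (29.5%) were called higher, with a median of 0.21 that was 0.010 after quantile normalization. The 8 members in this range had a median of 0.26, or 0.085 after quantile normalization. All 3 members called higher lie in it.

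Most markers of the proximal tubule, which holds many of these enzymes, were higher in calorie restriction. Of 16 proximal tubule markers 10 were called higher, beside 3.08% of all tested genes and 29.5% of those with a mean log2 signal of at least 13. The summed signal of the 16 markers was 172618 to 217871 in control and 254003 to 296648 in calorie restriction. Of the 16, 2 were called after quantile normalization, 0 by limma with the 3' to 5' ratio in the fit (13 with an unadjusted p under 0.05) and 2 in replicates 4 and 5 of each group alone. The medians were 0.22, 0.36 and 0.36, against 0.38 with all mice and no such term. Of 7 liver markers tested 1 was called higher, albumin (Alb, 1.53 ± 0.36 with limma's adjusted p = 0.0312), and the summed liver signal of 10611 to 16007 in control overlapped that of 12705 to 18057 in calorie restriction. Lower calls were made for 3 of 9 macrophage, 2 of 8 stromal and smooth muscle, 2 of 3 adipocyte, 1 of 5 B and plasma cell and 1 of 4 podocyte markers. Among all tested genes 3.02% were called lower. Summed macrophage signal was 18653 to 34296 in control and 14595 to 22410.0 in calorie restriction. Of 6 collecting duct markers 1 was called higher, and limma made no call among 6 endothelial, 7 thick limb and distal tubule and 2 adrenal cortex markers (3, 2 and 1 with an unadjusted p under 0.05). In whole kidney RNA, fewer cells of a type and less RNA per cell cannot be told apart. The part of cell makeup, RNA quality and brightness in the results below was not tested beyond the values given.

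Among the 31 tested members, 3 were called higher in calorie restriction, beside 3.08% of the 12196 genes tested, and 1 was called lower, beside 3.02%. The higher genes were Ugt2b38, Ugt3a2 and Gstp1, and the lower gene was Sult1a1. Signals of the groups did not overlap in 3 members that were higher (Gstp1, Gstt1 and Ugt3a2, beside 3.8% of all genes) and in 1 that was lower (Sult1a1, beside 3.69%). The median difference over the tested members was -0.0010, against -0.0052 over all tested genes, with 15 members above 0 and 16 below. An unadjusted limma p under 0.05 was reached by 9 members and by 3224 of the 12196 genes. The median over the tested members was 0.19 with the 3' to 5' ratio in the fit, 0.23 in replicates 4 and 5 of each group alone and 0.19 for calorie-restricted replicates 4 and 5 against every control, beside -0.0020, -0.011 and 0.012 over all tested genes. Genes matched to the members for brightness were not set beside these medians, and bright genes ran higher in calorie restriction, as given above. No test compared the families with each other.

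**Figure D1:**
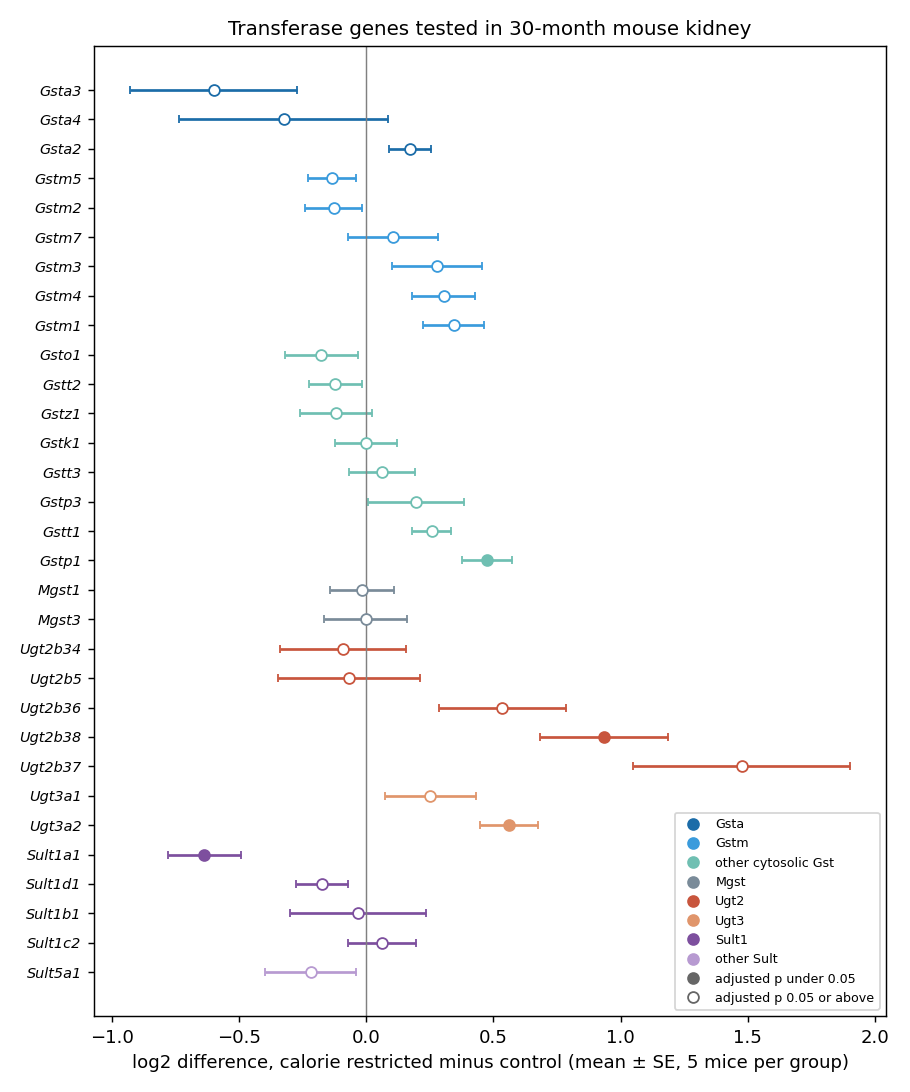
Log2 differences (calorie restricted minus control, horizontal axis) of the 31 tested members, grouped by family, with bars for limma's standard error (n = 5 mice per group). Ugt2b37 and Ugt2b38 lie farthest to the right at 1.48 and 0.93, and Sult1a1 lies farthest to the left at -0.64.

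The largest difference among the tested members was that of a Ugt2 gene. Of 10 named Ugt2 and Ugt3 genes 7 were tested, 2 were called higher (beside 3.08% of all tested genes) and none lower (beside 3.02%). Both called genes had a mean log2 signal of at least 13, where 29.5% of all tested genes were called higher. Neither stayed called after quantile normalization. Of the 7 tested, 4 had an unadjusted limma p under 0.05 (beside 3224 of all 12196 genes), and 5 lay above 0, with a median of 0.54. The same number lay above 0 after quantile normalization or median centring, and all 7 did with the 3' to 5' ratio in the fit (median 0.53) or in replicates 4 and 5 of each group alone (median 0.84). Ugt2b38 and Ugt2b37 belong to the Ugt2b cluster on chromosome 5, whose enzymes glucuronidate steroids, bile acids and many drugs.

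Ugt2b38 had signals of 16410.2, 7189, 6948, 5209.7 and 5871 in control replicates 1 to 5. In calorie-restricted replicates 1 to 5 the signals were 11449.9, 15908, 19305, 15251 and 11916. All calorie-restricted mice were above 4 of the controls, and control replicate 1 stood among the calorie-restricted mice, so the groups overlapped. The means were 8325 ± 4590.4 and 14766 ± 3212 signal units (SD, n = 5), which gave a log2 difference of 0.93 ± 0.25 or 1.91-fold on the geometric mean (limma adjusted p = 0.0438). Without control replicate 1 the difference was 1.21 (limma adjusted p = 0.0023), and in replicates 4 and 5 of each group alone it was 1.29 (limma adjusted p = 0.010). The call was lost in 17 of 23 other settings, among them quantile normalization (0.77, limma adjusted p = 0.101) and 8 of the 10 fits without 1 mouse, with adjusted p from 0.0515 to 0.106 there. In all 23 settings the difference stayed positive, from 0.77 to 1.29.

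Ugt2b37 followed the same mice. Its control signals were 8945, 1906, 1537, 1132 and 1789.6, and its calorie-restricted signals were 3922, 6064, 9449, 6497 and 6053, in the order of the replicate numbers. The calorie-restricted mice again all lay above 4 of the controls, with control replicate 1 near the top of both groups. Means were 3062 ± 3302 and 6397 ± 1979.7 (SD, n = 5), and the log2 difference of 1.48 ± 0.43, the largest of the 31 tested members, missed the threshold (limma adjusted p = 0.0537). Without control replicate 1 it was 1.98 (limma adjusted p = 0.000683), and in replicates 4 and 5 of each group alone 2.14 (limma adjusted p = 0.0071). After quantile normalization it was 1.46 (limma adjusted p = 0.0706). Slc7a13, a cystine transporter of the straight proximal tubule chosen here after its values were seen, also had its highest control signal in control replicate 1, at 12294 against 1027 to 2990 in the other controls. Slc7a13 is among the proximal tubule markers counted above, and the others are not given by mouse here. What sets control replicate 1 apart was not tested.

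**Figure D2:**
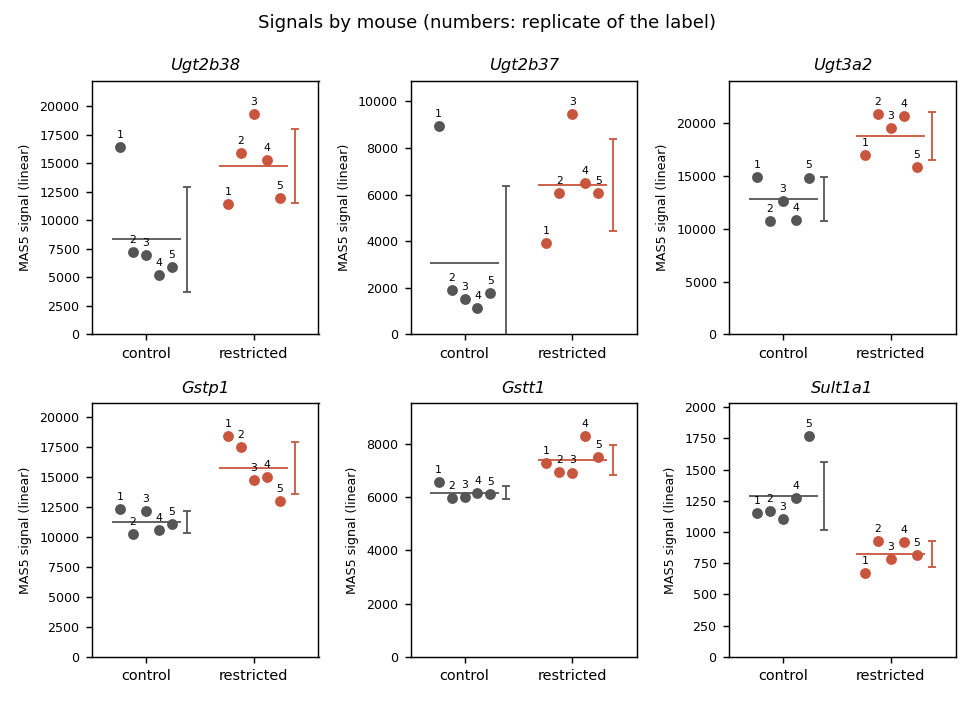
MAS5 signal (linear scale, vertical axis) of Ugt2b38, Ugt2b37, Ugt3a2, Gstp1, Gstt1 and Sult1a1 in each mouse, numbered by replicate, with the group mean and SD (n = 5; the lower bar of Ugt2b37 in control ends at 0). Control replicate 1 stands with the calorie-restricted mice for Ugt2b38 and Ugt2b37, at 16410.2 and 8945, while the groups of Ugt3a2, Gstp1, Gstt1 and Sult1a1 do not overlap.

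The sequences before the start sites of this pair are shown because both genes deviated in the same mice. The windows hold the 250 bases upstream of the start in RefSeq (GRCm38.p6), 5′ to 3′ on the minus strand, at chr5:87424204-87424453 for Ugt2b38 and chr5:87254789-87255038 for Ugt2b37. Capitals mark the nuclear receptor hexamer AGGTCA and, in Ugt2b37, an AP-1 core (TGAGTCA, read as TGACTCA on the strand shown).
Ugt2b38: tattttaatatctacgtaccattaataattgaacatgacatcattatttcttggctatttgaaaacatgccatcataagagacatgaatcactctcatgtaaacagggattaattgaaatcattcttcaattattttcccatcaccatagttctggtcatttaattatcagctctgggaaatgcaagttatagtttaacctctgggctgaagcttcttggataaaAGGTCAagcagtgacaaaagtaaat
Ugt2b37: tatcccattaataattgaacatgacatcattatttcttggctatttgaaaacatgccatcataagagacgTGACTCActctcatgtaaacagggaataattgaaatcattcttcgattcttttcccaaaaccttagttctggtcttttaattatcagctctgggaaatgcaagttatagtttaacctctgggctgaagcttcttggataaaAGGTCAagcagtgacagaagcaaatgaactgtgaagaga
Shifted by 14 bases, the windows matched at 222 of 236 bases (94.1%) without gaps. AGGTCA lay 25 to 20 bases upstream of the Ugt2b38 start and 39 to 34 upstream of the Ugt2b37 start. The AP-1 core of Ugt2b37 lay 180 to 174 upstream. The hexamer is not particular to this pair. It also lay 22 to 17 bases upstream of the Ugt2b5 start and 25 to 20 upstream of the Ugt2b36 start. Those genes had differences of -0.066 and 0.54, and neither was called. Ugt2b38 and Ugt2b37 are close paralogs, so a probe set of one may also bind transcripts of the other. The split of signal between them is uncertain. Of the member genes, Ugt2a3 lies between them in the RefSeq annotation of this assembly.

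The other Ugt2 members did not pass the threshold. Ugt2b36 was dim, at 117 ± 44.0 in control and 163 ± 26.6 in calorie restriction (SD, n = 5), with a difference of 0.54 ± 0.25 (limma adjusted p = 0.190). Ugt2b34, at 1500.1 ± 521 and 1358 ± 344, and Ugt2b5, at 545 ± 275 and 478 ± 90.9, had differences of -0.091 ± 0.25 and -0.066 ± 0.28 (limma adjusted p = 0.849 and 0.906). The other Ugt2b34 probe set gave -0.81 ± 0.43 (limma adjusted p = 0.250). The Ugt2 values therefore ranged from large positive differences in the Ugt2b37 and Ugt2b38 pair to values near 0 in Ugt2b34 and Ugt2b5. Ugt2b1, Ugt2b35 and Ugt2a3 were below the filter, with mean signals of 59.0 to 110 in calorie restriction.

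Ugt3 enzymes use UDP sugars other than UDP-glucuronate. Ugt3a2 had control signals of 14962, 10708, 12649, 10843 and 14869 and calorie-restricted signals of 17033, 20878, 19578, 20653 and 15859.9. Every calorie-restricted mouse was above every control. The means were 12806 ± 2073 and 18800.5 ± 2243 (SD, n = 5), a log2 difference of 0.56 ± 0.11 or 1.47-fold (limma adjusted p = 0.0212). The difference was 0.59 for calorie-restricted replicates 1 to 3 and 0.51 for replicates 4 and 5 against all controls. After quantile normalization it was 0.34 (limma adjusted p = 0.0854), and with control replicate 2, calorie-restricted replicate 2 or calorie-restricted replicate 3 left out the call was lost (limma adjusted p = 0.0568, 0.0576 and 0.0517).

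Its neighbour Ugt3a1, an N-acetylglucosaminyltransferase in the same family, had a difference of 0.25 ± 0.18 (limma adjusted p = 0.395). Control signals were 4996, 2543, 2579.9, 3067 and 2743, and calorie-restricted signals were 4047, 4561, 3963, 3073 and 2941. Control replicate 1 was again the highest of the controls, and calorie-restricted replicates 4 and 5 were the lowest of their group. The other Ugt3a1 probe set gave 0.20 ± 0.17 (limma adjusted p = 0.486).

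Ugt1a genes, which glucuronidate bilirubin and phenols, share their last exons, and their 3 probe sets each carried the symbols of 8 Ugt1a genes, so no single Ugt1a gene could be named as a member. The brightest had signals of 23175 to 28844 (mean 27158 ± 2264) in control and 31905 to 38213 (mean 34515 ± 2691) in calorie restriction, with no overlap. Its difference was 0.35 ± 0.078 (limma adjusted p = 0.0268). Another probe set, also without overlap, gave 0.34 ± 0.085 (limma adjusted p = 0.0370), and the remaining probe set gave -0.0085 ± 0.12 (limma adjusted p = 0.974). The probe sets of the shared Ugt1a transcripts thus disagreed. After quantile normalization the differences of the called pair were -0.019 and 0.072, so the brightest one turned in sign and neither was called (limma adjusted p = 0.848 and 0.513). After median centring they were 0.25 and 0.24, and only the brightest stayed called (limma adjusted p = 0.0475 and 0.0772). With the 3' to 5' ratio in the fit they were 0.24 and 0.22, and neither was called (limma adjusted p = 0.302 and 0.379). In replicates 4 and 5 of each group alone they were 0.21 and 0.22, again without a call (limma adjusted p = 0.330 and 0.321).

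Glutathione transferases, cytosolic, mitochondrial and microsomal together, were 23 genes, of which 19 were tested. Gstp1 was called higher and none was called lower, while 9 of the 19 differences lay above 0. Gstp1 is the pi-class enzyme, which conjugates small electrophiles. Its control signals were 12327, 10255, 12167, 10614 and 11085, and its calorie-restricted signals were 18413, 17510.4, 14791, 15053 and 13049.6. No calorie-restricted mouse was as low as the highest control. Means of 11289.6 ± 924 and 15764 ± 2173 (SD, n = 5) gave a log2 difference of 0.47 ± 0.098 or 1.39-fold (limma adjusted p = 0.0213).

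The size of the Gstp1 difference was 0.58 for calorie-restricted replicates 1 to 3, with the high 3' to 5' ratios, and 0.32 for replicates 4 and 5. With the ratio as a covariate it was 0.30 (limma adjusted p = 0.275), and after quantile normalization 0.29 (limma adjusted p = 0.0508). The call was also lost without control replicate 2 or 4 or calorie-restricted replicate 1 or 2, with limma adjusted p of 0.0586, 0.0509, 0.0543 and 0.0585. In all 23 other settings the difference stayed between 0.29 and 0.54. Gstp3, another pi-class gene, had 247 ± 59.4 and 280 ± 48.8 signal units, a difference of 0.20 ± 0.19 (limma adjusted p = 0.543).

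The window upstream of Gstp1 (chr19:4037913-4038162) and that of Sult1a1 (chr7:126676419-126676668), both on the minus strand of GRCm38.p6 from RefSeq, are shown as those of the called genes with known start sites beside Ugt2b38. The Sult1a1 window lies inside the annotated span of the gene (chr7:126672865-126690443). It precedes a start within that span and not the 5′ end of the gene. Capitals mark the AP-1 core TGAGTCA and the XRE core GCGTG in Gstp1, and the HNF1 motif GTTAAT and a D-box (TTANGTAA) in Sult1a1.
Gstp1: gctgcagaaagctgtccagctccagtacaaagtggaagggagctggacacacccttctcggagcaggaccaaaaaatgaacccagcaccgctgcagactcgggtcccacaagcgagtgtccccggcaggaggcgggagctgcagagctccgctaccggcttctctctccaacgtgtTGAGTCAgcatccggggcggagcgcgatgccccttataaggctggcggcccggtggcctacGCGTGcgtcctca
Sult1a1: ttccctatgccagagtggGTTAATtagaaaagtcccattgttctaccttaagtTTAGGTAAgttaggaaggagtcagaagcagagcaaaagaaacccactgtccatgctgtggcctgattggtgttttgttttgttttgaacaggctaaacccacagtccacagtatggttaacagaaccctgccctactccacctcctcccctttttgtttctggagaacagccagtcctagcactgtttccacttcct
In Gstp1 the AP-1 core lay 74 to 68 and the XRE core 13 to 9 bases upstream of the start. In Sult1a1 the HNF1 motif lay 232 to 227 and the D-box 197 to 190 bases upstream. D-box elements are bound by PAR bZIP factors such as Dbp and Hlf, and the XRE core by the aryl hydrocarbon receptor. Whether PAR bZIP factors bind TTAGGTAA was not tested.

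Over the 53 windows of 41 member genes, searched on both strands, the shares holding each motif were set against all 32841 windows. The antioxidant response element core TGACNNNGC, bound by Nrf2, was in 4 member windows (7.55%, against 10.2% of all), and GCGTG was in 10 (18.9%, against 28.2%). GTTAAT was in 5 (9.43%, against 6.43%), TTANGTAA in 2 (3.77%, against 2.06%) and AGGTCA in 9 (17%, against 14%). TGAGTCA, which can overlap the antioxidant core and was added after the windows were seen, was in 6 (11.3%, against 4.46%). A match describes letters in these 250 bases and no binding was measured.

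Theta-class Gstt1, which conjugates small halogenated compounds, did not overlap between the diets but missed the threshold. Control signals ran from 5987 to 6569 (6569, 5987, 6016, 6178 and 6132), and calorie-restricted signals from 6932 to 8287 (7278, 6946, 6932, 8287 and 7520.3). All calorie-restricted mice were above all controls. The difference was 0.26 ± 0.077 (limma adjusted p = 0.0597), and it was 0.18 after quantile normalization and 0.36 in replicates 4 and 5 of each group alone. Gstt2 and Gstt3 of the same class had differences of -0.12 ± 0.10 and 0.062 ± 0.13 (limma adjusted p = 0.484 and 0.798).

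Mu-class enzymes, encoded by a gene cluster on chromosome 3, had 4 of 6 tested genes above 0 and 2 below, with a median of 0.19 and no call. Of these 6, Gstm1 and Gstm4 had an unadjusted limma p under 0.05. Gstm1 had control signals of 8986, 7888, 12186, 7171 and 9385 and calorie-restricted signals of 11673, 12611, 10977, 10789.5 and 10949. Control replicate 3 lay among the calorie-restricted mice and the other controls lay below all of them. The means were 9123 ± 1924 and 11400.0 ± 758 (SD, n = 5), a difference of 0.34 ± 0.12 (limma adjusted p = 0.0944). Without control replicate 3 it was 0.45 (limma adjusted p = 0.0396). Its other probe sets gave 0.34, 0.11 and 0.34, so the 4 had the same sign.

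Gstm4 had a difference of 0.30 ± 0.13 (limma adjusted p = 0.143), from 458 ± 58.9 to 565 ± 61.8 signal units (SD, n = 5). Gstm3 and Gstm7 had differences of 0.28 ± 0.18 and 0.11 ± 0.18 (limma adjusted p = 0.335 and 0.743). The dimmer Gstm7 probe set gave 0.23 ± 0.13 (limma adjusted p = 0.287), with every calorie-restricted mouse above every control. Gstm2 and Gstm5 lay below 0, at -0.13 ± 0.11 and -0.13 ± 0.094 (limma adjusted p = 0.493 and 0.392). The mu-class genes are close in sequence, so their probe sets may share transcripts. Gstm6 was below the filter.

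Alpha-class enzymes conjugate products of lipid peroxidation, Gsta4 with a preference for hydroxynonenal. None of the 3 passed the threshold or reached an unadjusted limma p under 0.05. Gsta2 had control signals of 15643, 20354, 19060.0, 18929.6 and 18011 and calorie-restricted signals of 23163, 20440.0, 19466, 20779.9 and 19573. The groups overlapped through control replicate 2. The difference was 0.17 ± 0.082 (limma adjusted p = 0.201), and its sign turned to -0.057 after quantile normalization. A probe set shared by Gsta1, Gsta2 and Gm3776 gave -0.24 ± 0.17 (limma adjusted p = 0.371).

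Gsta3 and Gsta4 varied widely within each diet. Gsta3 signals were 1716, 3092, 3695, 1538 and 1454 in control and 1384, 926, 803, 2259 and 2362 in calorie restriction. Calorie-restricted replicates 4 and 5 were above replicates 1 to 3, with means of 2311 and 1038. The difference over all mice was -0.60 ± 0.33 (limma adjusted p = 0.264). Against all controls it was -1.08 for replicates 1 to 3 and 0.12 for replicates 4 and 5, and the other Gsta3 probe set gave 0.031 ± 0.16 over all mice. Gsta4 signals were 1245, 5233, 7638, 3849.9 and 3642 in control and 3838, 1748, 1756, 4389 and 4375 in calorie restriction, so the control mice spanned the whole range. Its difference was -0.33 ± 0.41 (limma adjusted p = 0.650), with -0.70 for replicates 1 to 3 and 0.24 for replicates 4 and 5.

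The microsomal enzymes Mgst1 and Mgst3, membrane proteins that also reduce lipid hydroperoxides, had differences near 0. Mgst1 signals were 12241 ± 1939 in control and 12079.8 ± 1789 in calorie restriction (SD, n = 5), a difference of -0.017 ± 0.13 (limma adjusted p = 0.947). Mgst3 signals were 6669 ± 1533 and 6602 ± 1161, a difference of -0.0028 ± 0.16 (limma adjusted p = 0.994). Neither reached an unadjusted limma p under 0.05. Control replicates 1 and 5 were the lowest controls for both. Mgst2, which also makes leukotriene C, was below the filter.

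Other glutathione transferases did not pass the threshold. Gstk1, the mitochondrial and peroxisomal kappa enzyme, had a difference of -0.0010 ± 0.12 (limma adjusted p = 0.997). Gstz1, the maleylacetoacetate isomerase of tyrosine breakdown, had -0.12 ± 0.14 (limma adjusted p = 0.630). Gsto1, an omega enzyme with dehydroascorbate reductase activity, had -0.18 ± 0.14, and its other probe set gave -0.15 ± 0.17 (limma adjusted p = 0.457 and 0.624). Gsto2 and Gstt4 were below the filter.

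The calorie-restricted group was split for several glutathione transferases. In 11 of the 31 members (35.5%) replicates 4 and 5 both lay above replicates 1 to 3, against 23.4% of all tested genes, and in 4 (12.9%) both lay below, against 19.3%. Those 4 were Gstm1, Gsto1, Gstt3 and Ugt3a1. In 13 members the difference from the controls had opposite signs on the sides of this split, as in 4173 of the 12196 tested genes. Gstz1 had -0.30 for replicates 1 to 3 and 0.15 for replicates 4 and 5, Gstk1 -0.15 and 0.23, Mgst1 -0.13 and 0.15, and Gstt2 -0.27 and 0.11. In replicates 4 and 5 of each group alone 16 of the 19 glutathione transferases lay above 0, as did 16 with the 3' to 5' ratio in the fit, against 9 with all mice and 8 after quantile normalization or median centring. The share of all tested genes above 0 in those alternative settings is not given here. Replicates 1 to 3 are those with the high 3' to 5' ratios, and the part of RNA quality in this split was not tested beyond these values.

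**Figure D3:**
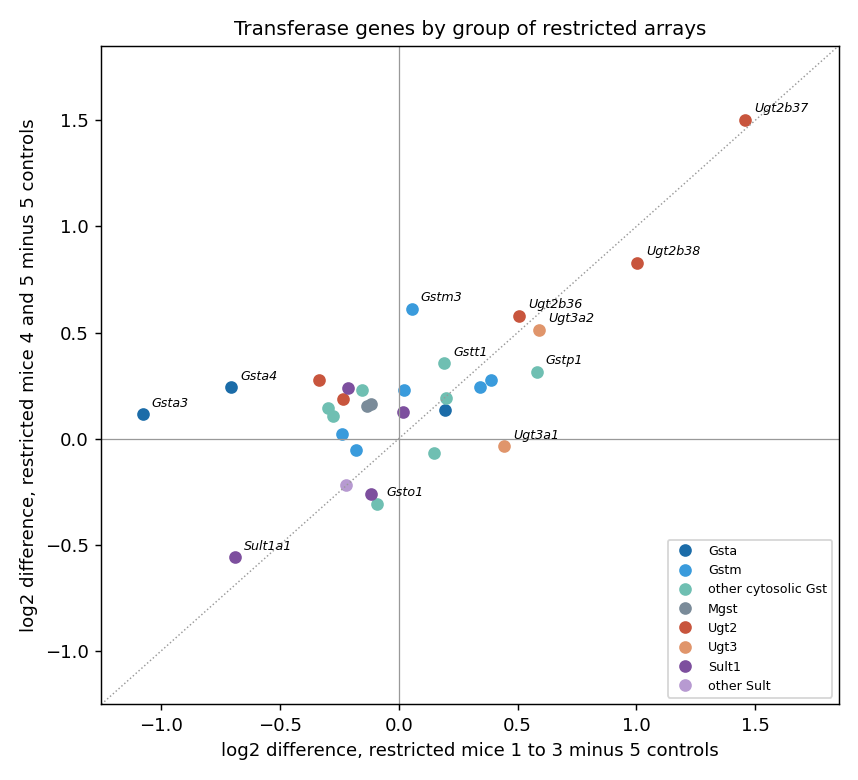
Log2 difference from all controls for calorie-restricted replicates 1 to 3 (horizontal axis) and replicates 4 and 5 (vertical axis), 1 point per tested member. The points share the controls; Gsta3 lies at -1.08 and 0.12, while Ugt2b37 (1.46 and 1.50), Ugt3a2 (0.59 and 0.51) and Sult1a1 (-0.69 and -0.56) have the same sign on both axes.

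**Figure D4:**
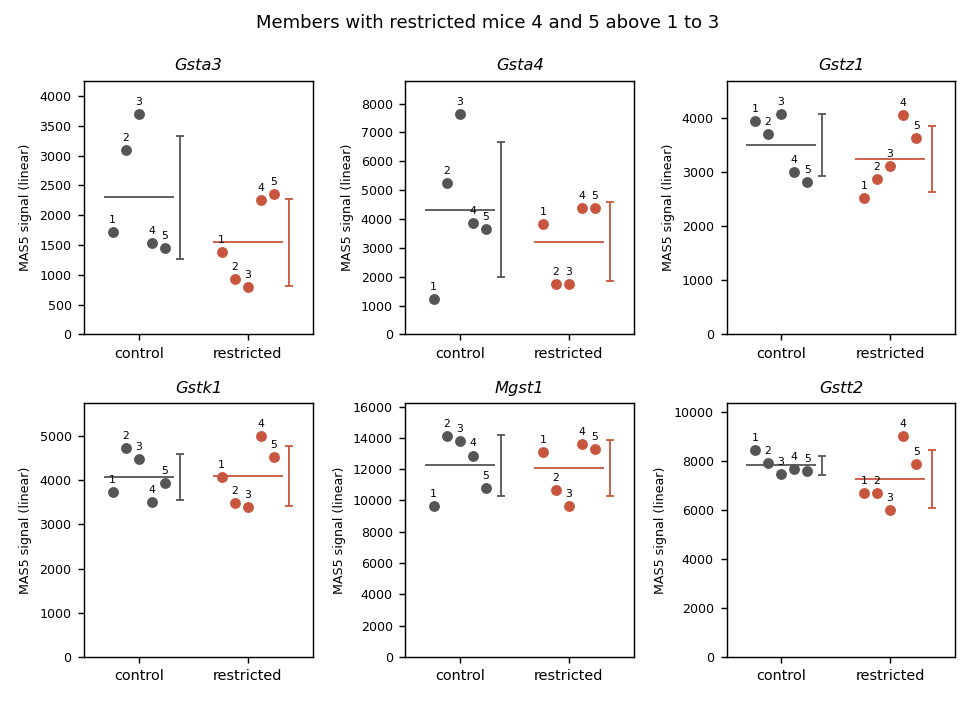
MAS5 signal (linear scale, vertical axis) of Gsta3, Gsta4, Gstz1, Gstk1, Mgst1 and Gstt2 in each mouse, numbered by replicate, with the group mean and SD (n = 5). These genes were chosen for the figure because calorie-restricted replicates 4 and 5 lie above replicates 1 to 3, for Gsta3 with means of 2311 and 1038. The panels are therefore no test of the split, and members with replicates 4 and 5 below replicates 1 to 3 are not drawn.

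Sulfotransferases were mostly dim in these kidneys, with 5 of 13 genes tested. Sult1a1, the phenol sulfotransferase, was called lower, no gene was called higher, and 4 of the 5 differences were below 0, with a median of -0.18. Control signals of Sult1a1 were 1149, 1168, 1101, 1271 and 1765, and calorie-restricted signals were 669, 930.4, 786, 920.0 and 812. Every calorie-restricted mouse was below every control. The means were 1291 ± 272 and 824 ± 107 (SD, n = 5), a log2 difference of -0.64 ± 0.14, with control 1.55-fold above calorie restriction (limma adjusted p = 0.0262).

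The Sult1a1 difference had the same sign in both parts of the calorie-restricted group, at -0.69 for replicates 1 to 3 and -0.56 for replicates 4 and 5. After quantile normalization it was -0.58 and stayed called. The call was lost in 11 of 23 settings, among them the fits without control replicate 2 or 4 or calorie-restricted replicate 1, 2 or 3, with limma adjusted p of 0.0568, 0.0550, 0.0650, 0.0512 and 0.0626. The difference lay between -0.79 and -0.52 in all 23.

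Sult1d1, which sulfates dopamine and other catecholamines, had control signals of 10340.1, 14202, 13082, 11536 and 12209 and calorie-restricted signals of 11354, 12971, 9669, 10401 and 9954. The groups overlapped, with 4 of 5 calorie-restricted mice below the control mean. The difference was -0.18 ± 0.10 (limma adjusted p = 0.295), and the other probe set gave -0.37 ± 0.13 (limma adjusted p = 0.107). Sult1c2, at 1930.2 ± 352 and 1997 ± 231 (SD, n = 5), and Sult1b1, a thyroid hormone sulfotransferase, had differences of 0.062 ± 0.13 and -0.033 ± 0.27 (limma adjusted p = 0.806 and 0.953). Sult5a1 had -0.22 ± 0.18 (limma adjusted p = 0.464).

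The 8 sulfotransferases below the filter were Sult1c1, Sult1e1, Sult2a2, Sult2a8, Sult2b1, Sult3a1, Sult4a1 and Sult6b1. Of the hydroxysteroid sulfotransferases among them, Sult2a8 was at 19.1 ± 12.9 and 44.1 ± 15.2, Sult2a2 at 31.3 ± 23.8 and 50.4 ± 11.5, and Sult2b1 at 41.8 ± 40.4 and 66.9 ± 19.7 signal units in control and calorie restriction (SD, n = 5). The groups overlapped for each. The group means are below the array medians of 115 to 136, and no fold or test is given for them. Sult1e1, the estrogen sulfotransferase, was at 7.22 ± 3.82 and 5.56 ± 2.99.

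Genes that make, supply, remove or export the conjugates were taken from lists by function. With the 3' to 5' ratio in the fit limma called 0 genes in each of the 8 lists that follow (1 to 6 a list had an unadjusted p under 0.05), so the calls below are those of the fit without it. In glutathione synthesis and reduction, 4 of 11 tested genes were called higher and none lower, beside 3.08% and 3.02% of all genes, with a median of 0.25. Selenium-dependent glutathione peroxidase Gpx1 had a difference of 0.35 ± 0.070, the secreted Gpx3, made by the proximal tubule, 0.40 ± 0.087, and Gpx4, which reduces lipid hydroperoxides in membranes, 0.35 ± 0.092 (limma adjusted p = 0.0198, 0.0233 and 0.0418). Glutathione synthetase Gss was at 0.49 ± 0.13 (limma adjusted p = 0.0449). After quantile normalization none of the 4 was called, at 0.050, 0.057, 0.14 and 0.46. The rate-limiting subunits Gclc and Gclm had -0.099 ± 0.13 and 0.14 ± 0.14 (limma adjusted p = 0.651 and 0.547).

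In mercapturate formation and glutathione breakdown, 2 of 11 tested genes were called higher and none lower, with a median of 0.14. Nat8, which acetylates cysteine conjugates to mercapturates, had means of 9758 ± 1947 and 14905 ± 559.8 signal units (SD, n = 5) and a difference of 0.63 ± 0.12. The brush border aminopeptidase Anpep had 0.78 ± 0.16 (limma adjusted p = 0.0179 and 0.0202). Both stayed called after quantile normalization, at 0.49 and 0.83. With the 3' to 5' ratio in the fit they were 0.76 and 0.55 and neither was called (limma adjusted p = 0.0855 and 0.257). Acy3, an acylase of mercapturates, had 0.81 ± 0.23 (limma adjusted p = 0.0510) and overlapped between the groups. Nat8 has near-identical copies, so its value is uncertain as to the single gene.

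Supply and removal of the other conjugates gave few calls. In the list for UDP-glucuronate supply and use, 1 of 11 genes was called higher, Miox at 0.31 ± 0.080 (limma adjusted p = 0.0385). Miox, an inositol oxygenase, yields free glucuronate and does not itself make or use UDP-glucuronate. Its difference turned to -0.027 after quantile normalization, while Ugdh, which makes UDP-glucuronate, had 0.064 ± 0.10. In sulfate donor supply 1 of 14 was called higher, cystathionine beta-synthase Cbs at 0.93 ± 0.21 (limma adjusted p = 0.0265), and the PAPS synthase Papss2 had 0.076 ± 0.092. Of 7 deconjugating enzymes none was called by limma, 2 had an unadjusted p under 0.05, and Arsg came closest at -0.50 ± 0.16 (adjusted p = 0.0780). No gene of these 3 lists was called lower.

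Among transporters that export conjugates and take up organic anions, 2 of 12 were called higher and none lower. The basolateral organic anion transporter Slc22a6 had 0.60 ± 0.13 and the urate transporter Slc22a12 0.69 ± 0.16 (limma adjusted p = 0.0258 and 0.0269). Slc22a6 stayed called after quantile normalization at 0.50, and Slc22a12, at 0.50, did not (limma adjusted p = 0.0488 and 0.0818). Abcc2, the apical conjugate pump, had -0.0030 ± 0.17. Slc22a6 and Slc22a8 of this list, Miox and the regulator Hnf4a are also proximal tubule markers in the count above. Calls of these genes are therefore counted in both places.

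Of 16 tested regulators of such enzymes 3 were called higher and none lower. Hlf had 0.69 ± 0.15, Hnf4a 0.39 ± 0.10 and Dbp 0.97 ± 0.27 (limma adjusted p = 0.0237, 0.0388 and 0.0499). Hlf and Dbp are PAR bZIP factors with daily rhythms, and Hnf4a is a nuclear receptor of the proximal tubule. After quantile normalization Hlf remained called at 0.68, while Hnf4a had 0.26 and Dbp 0.94 (limma adjusted p = 0.110 and 0.0694). In replicates 4 and 5 of each group alone limma called 0 of the 16 regulators (5 had an unadjusted p under 0.05). There 7 lay above 0, with a median of -0.019. With all mice 11 lay above 0, with a median of 0.18. Nfe2l2, which encodes Nrf2, had -0.37 ± 0.13 (limma adjusted p = 0.0891). Of 18 Nrf2 targets outside the transferases 1 was called higher, ferritin heavy chain Fth1 at 0.33 ± 0.079 (limma adjusted p = 0.0321), which turned to -0.026 after quantile normalization. Nqo1, a standard Nrf2 target, had 0.047 ± 0.15 (limma adjusted p = 0.870).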

How the data were processed

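Kidney RNA of 10 mice was measured on Affymetrix Mouse Genome 430 2.0 arrays, and the files hold the authors' deposited MAS5 intensity of each of 45101 probe sets. The submitters' processing notes name MAS5 and Affymetrix Expression Console, with no versions. The deposited intensity values of each array, trimmed by 2% at both ends, had a mean of 500, which points to scaling by a trimmed mean and leaves differences that change with brightness. The number of arrays limits the precision. Genes came from the platform annotation (34945 probe sets with 1 symbol, 932 with several, left unnamed); all 59 member probe sets matched the RefSeq table and 0 symbols changed.

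Signals were floored at 1, log2 was taken, and control probe sets and those below the median were left out. Calorie restricted minus control was fitted with limma 3.58.1 in R 4.3.3 (eBayes with trend, 2-sided, no covariate); the labels give 1 mouse per array. On simulated data 79% of log2 changes of 1 and 98% of those of 2 were recovered (22517 probe sets). Recovery of smaller changes is not given here. All tested members but Ugt2b37 had differences smaller than 1 in size, so a missing call does not show that a gene was unchanged. Genes were named if past the threshold, if brightest in a family, or as up to 2 with the smallest p in a family with no call, and up to 3 called genes of each list; others were chosen after their values were seen. Alternatives were filters, scalings, a pseudocount of 50, other eBayes settings, array weights, a block, the 3' to 5' ratio, subsets of arrays and probe set rules. The members, lists and settings were chosen with earlier results of these data known.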

Additional observations from a re-analysis of the deposited data

Results flagged for a closer look

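Of 62 groups of 5 mice examined, 1 for each tested member and diet, 4 had a mouse whose gap to the nearest of the others passed Dixon's 95% critical value for its group's range, where chance gives about 1 in 20. All 4 were control replicate 1. It had the highest control signals of Ugt2b37 (8945, next 1906), Ugt2b38 (16410.2, next 7189) and Ugt3a1 (4996, next 3067), and the lowest of Gstm2 (1481, next 1953). Its 3' to 5' log2 ratio of 0.91 lay within the range of the other controls. Without it Ugt2b37 was called higher, at 1.98 (limma adjusted p = 0.000683), and Ugt2b38 stayed called.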

How the results depend on the processing

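With all mice, 3 members were called higher and 1 lower. Limma called 0 higher and 0 lower with no filter, without the eBayes trend, with the replicate block, with the 3' to 5' covariate, and when calorie-restricted replicates 4 and 5 were set against every control (unadjusted p under 0.05: 8 and 1, 8 and 1, 7 and 1, 7 and 2, 6 and 2). Quantile normalization left 0 higher (6 unadjusted), with Sult1a1 still lower. Replicates 4 and 5 of each group alone gave 2 higher, Ugt2b37 and Ugt2b38, and 0 lower (2 unadjusted). A filter keeping the top 30% of probe sets gave 5 higher, and an adjusted p under 0.1 gave 6. Leaving out each mouse gave 0 to 4 higher and 0 to 1 lower, with 0 and 0 without control replicate 2 or calorie-restricted replicate 2 and at most 1 higher without control replicate 4 or calorie-restricted replicate 1 or 3. The median difference of -0.0010 became 0.19 with the covariate, 0.23 in replicates 4 and 5 alone and 0.19 for calorie-restricted replicates 4 and 5 against every control, and -0.046 to 0.087 without single mice. In those same 3 settings Gsta3 turned to 0.19, 0.63 and 0.12, Mgst1 to 0.098, 0.19 and 0.15, and Mgst3 to 0.0997, 0.27 and 0.17. Mgst3 was 0.026 as the mean of its probe sets. Without single mice Mgst1 was -0.0997 to 0.060 and Mgst3 -0.098 to 0.11, both above 0 without control replicate 2, 3 or 4 or calorie-restricted replicate 2 or 3. Gsta2 was -0.057 after quantile normalization. The cause of these changes was not tested. None of the 4 called genes changed sign in 23 settings. No likeness of same-numbered mice was seen: their deviations from the group means correlated at -0.14 to -0.087, and 0 of 10 arrays correlated best with their own number. These values cannot settle whether the mice or arrays were handled in pairs.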
